A study of Mus musculus with 23 samples.

Results

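Extra-embryonic tissue of mouse embryos homozygous for a gene trap in Tet1 (Tet1gt/gt) was compared with wild-type (wt) extra-embryonic tissue of the same age, E6.25, across all genes. The comparison was chosen by label: 3 homozygous pools (1, 3 and 4) against 4 wt pools (1, 2, 4 and 5), 7 of the 23 libraries of the study, with 12355 of 23725 genes measured well enough to be tested. The other libraries are 4 pools of heterozygous (Tet1gt/wt) extra-embryonic tissue, which entered the same fit, and 12 pools of epiblast of the 3 genotypes. Per the labels, each pool joined lysates of at least 6 embryos from 2 to 3 litters that were genotyped after dissection, and a further homozygous extra-embryonic pool was lost. The position of the trap and the mouse strain were not stated there. The extra-embryonic tissue was taken as a whole, so a pool can hold several cell types. Gene levels are CPM, the count relative to the scaled library total on the usual scale, and fold changes are log2 differences between homozygous and wt pools ± SE, with p-values of edgeR's quasi-likelihood test adjusted over all genes by Benjamini-Hochberg.

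TET enzymes oxidise 5-methylcytosine, which opens a route to the removal of DNA methylation, while the DNMT enzymes place and copy the mark. TET1 can also act as a scaffold for chromatin regulators, including histone deacetylase and Polycomb complexes. At this stage the extra-embryonic ectoderm is a trophoblast stem cell tissue fed by FGF4 and Nodal from the neighbouring epiblast, it returns BMP4 to the epiblast, and towards the mother it differentiates into the ectoplacental cone. Its genome carries less DNA methylation than that of the epiblast. Visceral endoderm covers the outside and maternal decidua surrounds the conceptus, and both can be carried over in dissection.

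Some libraries stood apart, and results that rest on them are given with and without them. Total counts were 7336244 to 9014864 in wt pools, 4912215 to 7774149 in homozygous pools and 6810141 to 9494814 in heterozygous pools, the lowest being homozygous pool 3. In that library short and GC-rich transcripts read high: the slope of a gene's deviation from the mean of the 11 extra-embryonic libraries was -0.270 per log2 of transcript length and 0.579 per 10% GC. In wt pools these slopes were -0.0136 to 0.133 and -0.121 to 0.207. Homozygous pools 1 and 4 had length slopes of 0.0232 and 0.0331, within the wt range, but GC slopes of -0.224 and -0.282, below every wt pool. The homozygous group thus held the steepest GC slopes of the tissue in both directions. In wt pool 1 the summed level of 30 visceral endoderm genes was 568 CPM, against 33.9 to 89.1 CPM in the other wt pools, and that of 4 Y-linked genes was 4.52 CPM, against 56.4 to 73.4 CPM. The trophoblast genes Elf5 and Cdx2 were found in all 7 pools, at 111 to 239 CPM and 101 to 160.3 CPM, so markers of the labelled tissue were present. Since every library comes from its own pool, p-values measure the spread between pools of several embryos.

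**Figure D1:**
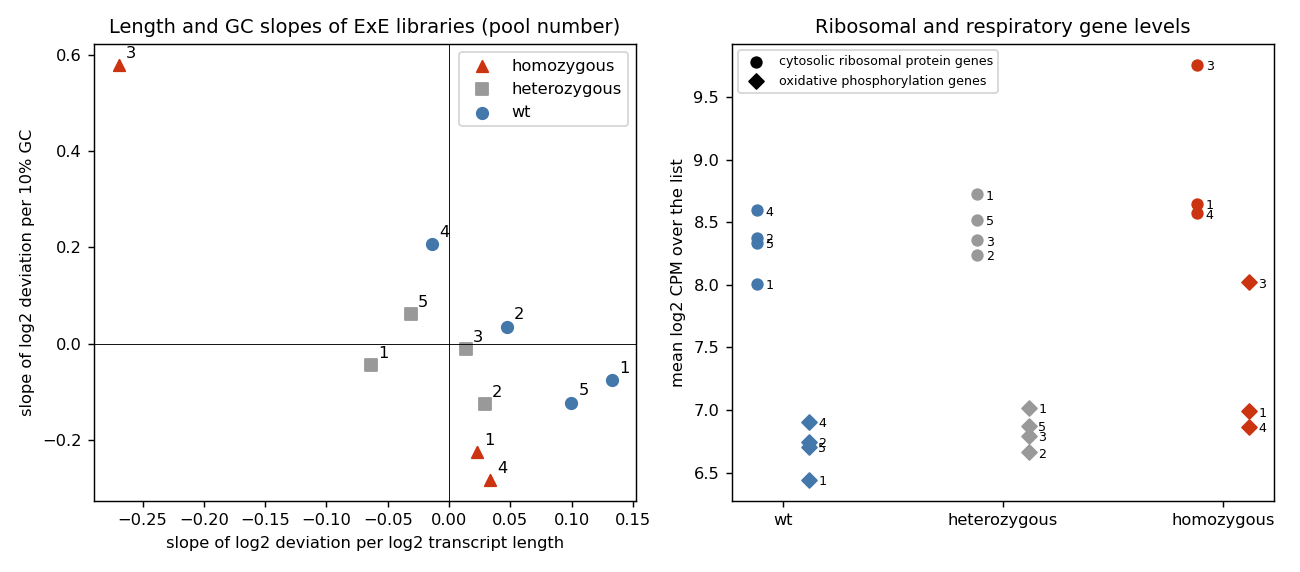
Left, slope of each extra-embryonic library's log2 deviation on log2 transcript length (x) and on GC content (y, per 10%), with the pool number beside each point. Homozygous pool 3 lies alone at -0.270 and 0.579, and homozygous pools 1 and 4 lie below every wt pool on the GC axis. Right, mean log2 CPM of 79 cytosolic ribosomal protein genes (circles) and 76 oxidative phosphorylation genes (diamonds) in each pool, with homozygous pool 3 highest for both.

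The transcript of the trapped gene stood far below wt in all 3 homozygous pools. Tet1 occupies chromosome 10, 62804570 to 62908996, minus strand (GRCm38), and its counts cover the gene as a whole. Wt pools 1, 2, 4 and 5 had 109, 99.3, 96.5 and 76.4 CPM, against 21.6, 22.8 and 37.9 CPM for homozygous pools 1, 3 and 4. The groups did not overlap, and homozygous pools held 28.8% ± 9.5 (SD, n = 3) of the wt mean. Heterozygous pools, set beside the same wt pools, held 50.7% ± 7.46 (SD, n = 4). On the log2 CPM scale the homozygous minus wt difference was -1.82, with a two-sided exact permutation p = 0.0286 over 35 splits of the 7 pools, the smallest value the design allows. In edgeR over all genes the log2 fold change was -1.79 ± 0.26 (adjusted p = 0.0704), which misses the threshold of 0.05. DESeq2 called it (adjusted p = 1.36e-08), as did edgeR after correction of each library for GC and length (-1.74, adjusted p = 0.0297) and without homozygous pool 4 (-2.10, adjusted p = 0.0251). Without homozygous pool 3 the value was -1.70 (edgeR adjusted p = 0.133). Over all edgeR alternatives Tet1's adjusted p ran from 0.0251 to 0.9999, and its fold change stayed between -2.10 and -1.65. In a pool of whole tissue, fewer cells of a type and less RNA per cell cannot be told apart, here or for any gene below.

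Of the other enzymes that write, copy or erase DNA methylation, none passed the threshold. Dnmt3b, the main de novo methyltransferase of the early post-implantation embryo, was at 3332, 1779.8, 2312 and 2032 CPM in wt and 1435, 1601 and 1918 CPM in homozygous pools, in the same pool order. The difference was -0.52 ± 0.19 (edgeR adjusted p = 0.548), the groups overlapped through homozygous pool 4, and the heterozygous mean was 1513 CPM. The highest level was in wt pool 1, the library with the visceral endoderm signal, which was also the highest wt pool for epiblast genes. Summed over a list of epiblast genes, levels were 2741, 1617, 2446 and 1718 CPM in wt and 1118, 3191 and 1936 CPM in homozygous pools. Among wt pools Dnmt3b had the same order as this list and as the summed visceral endoderm genes. The part of either tissue in the Dnmt3b levels was not tested. Without wt pool 1 the Dnmt3b difference was -0.31 (edgeR adjusted p = 0.89). Dnmt3a ranged from 45.1 to 285 CPM among wt pools, in the same order of pools, a spread wider than its log2 difference of -0.31 ± 0.49. Dnmt3l, the catalytically inactive partner of the de novo enzymes, had a difference of 0.22 ± 0.25. Dnmt1 and Uhrf1, which copy methylation at replication, stood at -0.21 ± 0.19 and -0.13 ± 0.15. For Uhrf1 the homozygous pools, at 341 to 367 CPM, were just below the wt pools, at 373 to 423 CPM.

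The 2 other TET genes also missed the threshold. Tet3 was at 30.4, 23.7, 14.8 and 30.02 CPM in wt and 29.3, 39.6 and 36.6 CPM in homozygous pools, overlapping, which gave 0.50 ± 0.29 on the log2 scale (edgeR adjusted p = 0.729). Tet2 was low, at 5.10 to 14.7 CPM in wt and 6.02 to 11.4 CPM in homozygous pools (-0.12 ± 0.43). Jmjd8, a Jumonji-domain gene, was at 4.70 to 8.47 CPM in wt and 5.17 to 8.82 CPM in homozygous pools, with a difference of -0.00 ± 0.43. Over the whole list of DNA methylation and demethylation genes, 33 of 36 were tested, 13 were higher and 20 lower, with a median log2 fold change of -0.13 against -0.02 over all genes. At an unadjusted p under 0.05 there were 1 higher and 2 lower; over all genes 5.35% were higher and 2.22% lower at that p. The median was -0.05 without homozygous pool 3, with 0 higher and 3 lower (all genes: 3.7% and 4.55%). With all pools the 2 lower were Tet1 and Dnmt3b, and the 1 higher was Gadd45g, a stress-response gene also linked to demethylation, at 24.1, 55.3, 25.2 and 39.1 CPM in wt and 96.9, 129.9 and 27.6 CPM in homozygous pools. Homozygous pool 4 lay within the wt range for it. Tdg, the glycosylase that excises oxidised methylcytosine, stood at -0.42 ± 0.22 (edgeR adjusted p = 0.711).

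**Figure D2:**
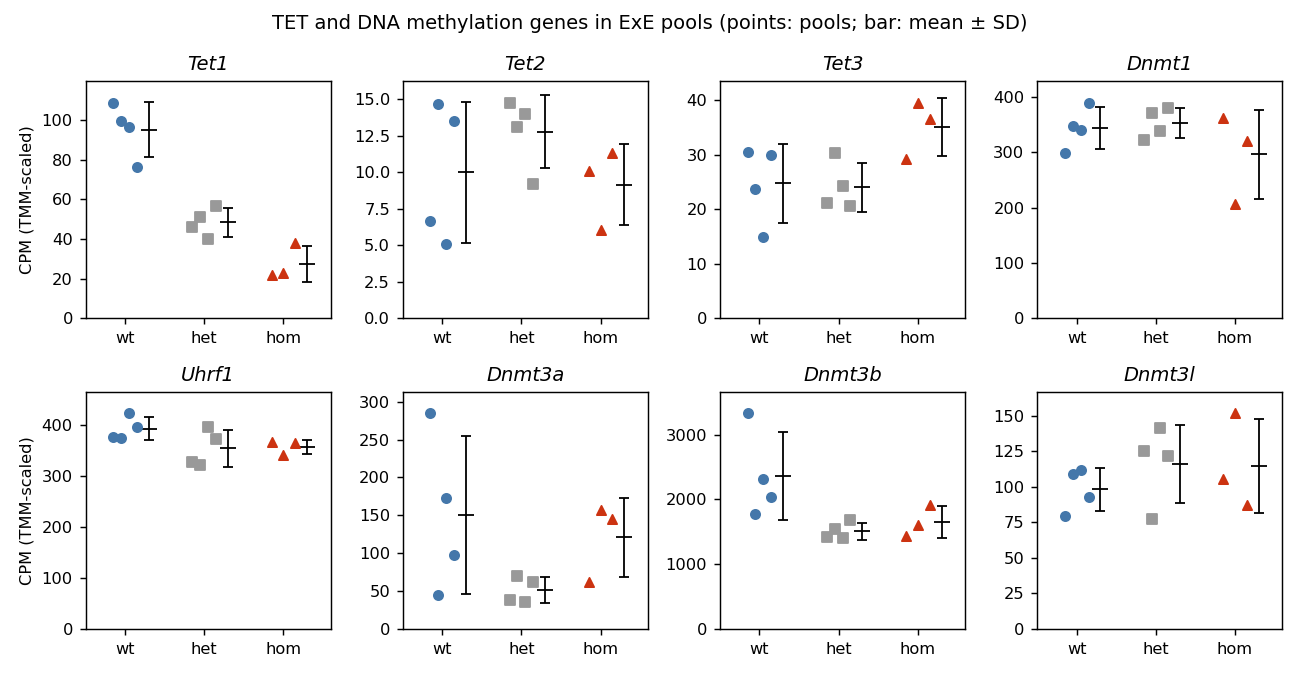
CPM of 3 TET genes and 5 DNA methylation genes in each extra-embryonic pool of wt (circles), heterozygous (squares) and homozygous (triangles) embryos, with the mean ± SD of each group (n = 4, 4 and 3). Tet1 separates the homozygous from the wt pools, at 21.6 to 37.9 against 76.4 to 109 CPM, Uhrf1 does so narrowly (341 to 367 against 373 to 423 CPM), and the other 6 genes overlap between these groups.

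Across all 12355 genes, 0 (0%) passed an adjusted p of 0.05 in edgeR. At an unadjusted p under 0.05 there were 935 genes (7.57%), of which 661 (5.35%) were higher and 274 (2.22%) lower in homozygous pools. limma-voom called 0 genes and DESeq2 called 11 of the 5655 genes for which it gave an adjusted p (0.195%), 9 higher (0.159%) and 2 lower (0.0354%). The balance of directions turned on homozygous pool 3: without it 473 genes were higher (3.7%) and 581 lower (4.55%) at p under 0.05, again with 0 past the threshold (0% of 12776), and DESeq2 called 29 of 5921 genes (0.49%), 9 higher (0.152%) and 20 lower (0.338%). Without homozygous pool 4, 1009 were higher and 606 lower, and edgeR called 2 genes, Tet1 and Phlda2. Of the 661 higher genes, 36 had a negative fold change without homozygous pool 3, while 0 of the 274 lower genes turned positive. After the GC and length correction the counts were 514 higher (4.16%) and 346 lower (2.8%), with 1 gene past the threshold (0.00809%), Tet1.

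The genes at p under 0.05 differed from the rest in length and base composition. All tested genes had a median transcript length of 3351 nt and a median GC content of 49.9%. Genes higher in homozygous pools had a median length of 1413 nt and those lower 4396 nt, with median GC contents of 50.1% and 52.9%. Without homozygous pool 3 the contrast lay in GC content, with medians of 43.9% for the higher and 55.6% for the lower genes. The length contrast has the direction of pool 3's length slope, and the GC contrast without pool 3 that of the GC slopes of pools 1 and 4. With both the removal and the correction, the medians were 51.7% and 50.8% GC, and 277 genes were higher (2.17%) and 370 lower (2.9%).

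In 348 genes the p-value was under 0.05 in the same direction with and without homozygous pool 3, 180 of them higher and 168 lower. Pools of the 2 groups did not overlap for 410 higher genes (3.32% of those tested) and 356 lower genes (2.88%). From those that met both conditions and had a mean log2 CPM of at least 1, which were 126 higher and 111 lower genes, 12 in each direction are described, ranked by the larger of the p-values with and without pool 3. None except Tet1 had an edgeR adjusted p below 0.513. These genes were selected for not overlapping and for their p-values. Their separation, and their p-values in other fits of the same pools, are therefore a description and not a test.

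**Figure D3:**
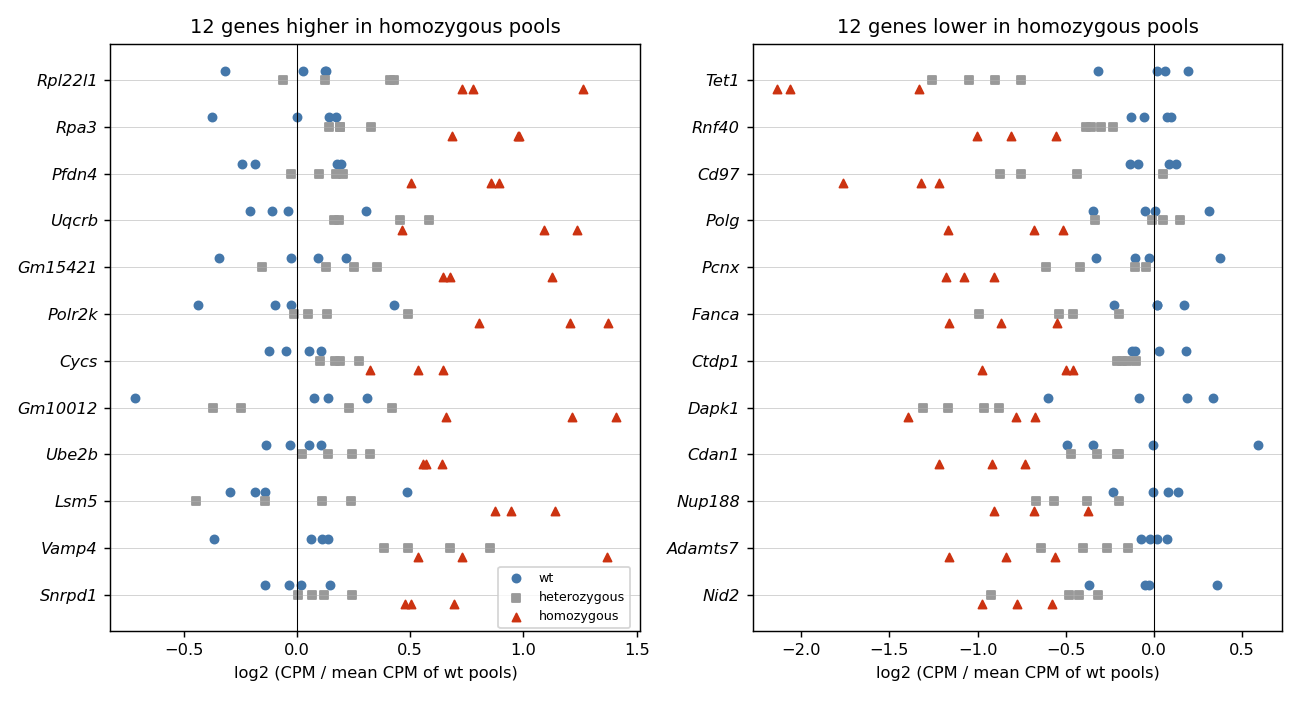
Log2 of each pool's CPM over the mean of the 4 wt pools for the 12 genes described in each direction, with wt (circles), heterozygous (squares) and homozygous (triangles) pools. The homozygous pools lie outside the wt range for all 24 genes, by the rule that chose them, and Tet1 has the lowest values.

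The 12 genes lower in homozygous pools had varied roles, and Tet1 was the first by that rank. The next was Rnf40, which encodes an E3 ligase that ubiquitinates histone H2B; it lies on chromosome 7 from 127588767 to 127604799. It was at 120.1, 131, 134 and 114 CPM in wt and 84.9, 62.2 and 71.1 CPM in homozygous pools, a difference of -0.78 ± 0.18 (edgeR adjusted p = 0.513, DESeq2 adjusted p = 0.0142). Its heterozygous mean was 100.1 CPM. Cd97, an adhesion G protein-coupled receptor on chromosome 8 (83723251 to 83741326), was at 17.9, 21.5, 20.9 and 18.5 CPM in wt and 7.89, 5.81 and 8.46 CPM in homozygous pools (-1.41 ± 0.33). Its wt pools lay close together and well above the homozygous pools. Nup188, a nuclear pore scaffold, stood at -0.64 ± 0.20, and Ctdp1, a phosphatase of the RNA polymerase II tail, at -0.62 ± 0.18.

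Of the remaining lower genes, Polg, the catalytic subunit of the mitochondrial DNA polymerase, was at 345, 545, 423 and 440.3 CPM in wt and 307, 195 and 273 CPM in homozygous pools (-0.76 ± 0.21). Fanca, of the Fanconi anaemia repair complex, was at 57.9, 64.4, 57.99 and 49.1 CPM and 25.6, 39.2 and 31.4 CPM (-0.84 ± 0.25). Without homozygous pool 3 DESeq2 called it (adjusted p = 0.0242). Pcnx, which encodes a large membrane protein, was at 24.7, 40.3, 28.9 and 30.6 CPM and 16.6, 13.8 and 14.8 CPM (-1.05 ± 0.27), and its homozygous pools lay close together. Dapk1, a death-associated kinase, stood at -0.92 ± 0.28, with a heterozygous mean of 22.2 CPM beside wt and homozygous means of 46.6 and 24.6 CPM. Cdan1, linked to histone supply, Adamts7, a secreted metalloprotease, and Nid2, a basement membrane component, stood at -0.94 ± 0.28, -0.83 ± 0.24 and -0.77 ± 0.23. The 12 lower genes were long, with a median of 5435 nt, and had a median GC content of 53.8%. All 12 had p under 0.05 after the GC and length correction (fold changes of -1.74 to -0.46), where 2.8% of all genes were lower at that p. With the correction and without homozygous pool 3, 11 did so, the exception being Ctdp1, where 2.9% of all genes were lower.

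The 12 genes higher in homozygous pools were led by Rpl22l1 and Rpa3. Rpl22l1, a paralogue of a ribosomal protein, lies on chromosome 3 from 28805436 to 28807424. It was at 78.9, 100.1, 107 and 107 CPM in wt and 163, 236 and 169 CPM in homozygous pools, highest in homozygous pool 3, a difference of 0.94 ± 0.21 (edgeR adjusted p = 0.513, DESeq2 adjusted p = 0.0198). Rpa3, the smallest subunit of the single-strand DNA binding complex RPA (chromosome 6, 8255936 to 8259173), was at 28.3, 36.6, 40.4 and 41.3 CPM in wt and 58.9, 72.1 and 72.3 CPM in homozygous pools (0.89 ± 0.21, DESeq2 adjusted p = 0.0179). Pfdn4, a subunit of the prefoldin chaperone, was at 52.4, 54.5, 70.9 and 70.1 CPM and 115, 87.8 and 112 CPM (0.76 ± 0.20). Here homozygous pool 3 was the lowest of its group, and the value without it was 0.86. Uqcrb, a subunit of respiratory complex III, was at 53.1, 56.9, 59.6 and 75.7 CPM and 131, 144 and 84.6 CPM (0.97 ± 0.22), and homozygous pool 4 was only a little above the highest wt pool.

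Of the remaining higher genes, Polr2k, a small subunit shared by RNA polymerases, stood at 1.15 ± 0.27, and the splicing proteins Lsm5 and Snrpd1 at 0.99 ± 0.25 and 0.56 ± 0.16. Cycs, cytochrome c, stood at 0.51 ± 0.14, the ubiquitin-conjugating enzyme Ube2b at 0.59 ± 0.17 and Vamp4, a SNARE of the trans-Golgi network, at 0.92 ± 0.28. Gm15421 (0.83 ± 0.20) and Gm10012 (1.13 ± 0.28) are predicted gene models, and as with ribosomal genes their reads could be divided between near-identical copies. The 12 higher genes had a median length of 807.5 nt and a median GC content of 40.4%. Their fold changes were 0.51 to 1.15, against 0.15 to 0.91 after the correction and 0.13 to 0.89 with the removal of pool 3 as well. Rpa3 went from 0.89 to 0.46, Uqcrb from 0.97 to 0.52, Gm15421 from 0.83 to 0.37 and Snrpd1 from 0.56 to 0.15 under the correction. After it 11 had p under 0.05, the exception being Snrpd1, where 4.16% of all genes were higher at that p. With the correction and without homozygous pool 3 only Rpl22l1, Pfdn4 and Vamp4 did, where 2.17% of all genes were higher. The share of these differences that goes with GC content was not tested beyond these values.

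DESeq2's 11 calls held 4 further genes that were outside that list. Phlda2, an imprinted brake on growth of the placenta (chromosome 7, 143501545 to 143503150), was at 117, 227, 222 and 176 CPM in wt and 919, 928 and 161 CPM in homozygous pools. Homozygous pools 1 and 3 were far above every wt pool, while pool 4 lay inside the wt range, and the log2 fold change was 1.85 ± 0.47 (DESeq2 adjusted p = 0.0336, edgeR adjusted p = 0.513). Without homozygous pool 4 edgeR called it (2.31, adjusted p = 0.0334), without pool 3 it was 1.52 (edgeR adjusted p = 0.57), and the heterozygous mean was 406 CPM. For the other 3 the size of the difference rested on homozygous pool 3, although every homozygous pool was above every wt pool. Zfp935, a zinc finger gene, was at 40.1, 288 and 79.9 CPM in homozygous pools against 22.7 to 39.00 CPM in wt. Atp5e, the epsilon subunit of ATP synthase, was at 118, 446 and 95.7 CPM against 49.1 to 91.9 CPM, and Sec61g, of the endoplasmic reticulum translocon, at 57.96, 247 and 49.9 CPM against 25.6 to 41.4 CPM. Without pool 3 their values went from 1.98, 1.71 and 1.74 to 0.78, 0.65 and 0.59 (edgeR unadjusted p = 0.0169, 0.0125 and 0.0293). With the correction as well, the edgeR unadjusted p-values were 0.171, 0.00899 and 0.157.

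Ribosomal protein and oxidative phosphorylation genes had mostly positive fold changes between homozygous and wt pools, with the highest levels in homozygous pool 3. All 79 cytosolic ribosomal protein genes had a positive fold change (median 0.73), and 70 had p under 0.05; of all genes 47.7% were positive and 5.35% were higher at that p. Without homozygous pool 3, 77 were positive (47.2% of all genes), the median was 0.24 and 11 were higher at p under 0.05 (3.7% of all genes). With the correction as well, the values were 74 positive (45.5% of all genes), a median of 0.17 and 19 higher at p under 0.05 (2.17% of all genes). Mean log2 CPM over the list was 8.01, 8.38, 8.60 and 8.34 in wt and 8.65, 9.76 and 8.57 in homozygous pools, so that homozygous pools 1 and 4 stood at or near wt pool 4. Heterozygous pools 1, 2, 3 and 5 were at 8.72, 8.24, 8.36 and 8.52, so heterozygous pool 1 stood above homozygous pools 1 and 4. Rpl34 was at 102, 117, 152 and 120.2 CPM in wt and 195, 586 and 174 CPM in homozygous pools, and Rpl39 at 82.02, 137, 141 and 151 CPM and 212, 517 and 186 CPM. For both, all homozygous pools were above all wt pools, and the edgeR unadjusted p stayed under 0.05 in the corrected fit without pool 3, as it did for only 19 of the 79 genes. Both were named for having p-values among the smallest of the list in these same pools, so this is a description and not a test.

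The nuclear-encoded subunits of the respiratory chain and ATP synthase followed the same order of wt and homozygous pools. Of 76 genes 70 were positive (median 0.79) and 51 were higher at p under 0.05 (all genes: 47.7% positive and 5.35% higher). Without homozygous pool 3 the values were 60, 0.18 and 12 (all genes: 47.2% positive and 3.7% higher). With the correction and without pool 3, 55 were positive, with a median of 0.12. In that fit 6 were higher at p under 0.05 (all genes: 45.5% positive and 2.17% higher). Mean log2 CPM was 6.44, 6.74, 6.91 and 6.71 in wt and 6.99, 8.02 and 6.86 in homozygous pools. Heterozygous pools 1, 2, 3 and 5 were at 7.02, 6.66, 6.79 and 6.87. Cox6c, of complex IV, was at 77.03, 95.98, 101 and 119 CPM in wt and 156, 242 and 143 CPM in homozygous pools, and Atp5l, of ATP synthase, at 44.1, 67.2, 63.8 and 76.8 CPM and 101, 348 and 83.2 CPM. Glycolysis genes were given the same fits: 6 of 23 were positive, with a median of -0.08 and 0 at p under 0.05 in either direction. When homozygous pool 3 was left out, 3 were positive, the median was -0.23 and 4 were lower at p under 0.05 (all genes: 4.55%). With the correction as well the median was -0.10 with 0 at that p. Among them Hk1, a hexokinase gene within 10 Mb of Tet1, stood at -0.47 ± 0.23.

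No marker of the trophoblast stem cell compartment passed the threshold. Of 22 tested genes 5 were positive and 17 negative (median -0.24), with 0 higher and 1 lower at p under 0.05 (all genes: 5.35% and 2.22%). There were 1 higher and 3 lower without homozygous pool 3 (median -0.22, all genes: 3.7% and 4.55%). With the correction as well 9 were positive and 13 negative (median -0.07), with 1 higher and 1 lower (all genes: 2.17% and 2.9%). The lower gene in the fit of all pools was Eomes, a T-box factor needed for trophoblast stem cells, at 419, 535, 464 and 606 CPM in wt and 302, 294 and 496 CPM in homozygous pools (-0.47 ± 0.20, edgeR adjusted p = 0.61), with homozygous pool 4 inside the wt range. Sox2 was at 103, 105, 105 and 112 CPM in wt and 42.04, 65.6 and 111 CPM in homozygous pools, lowest in pool 1. Tfap2c, a trophoblast AP-2 factor, was at 1009, 536 and 306 CPM against 278 to 527 CPM in wt, highest in the same pool. Pcsk6, a convertase that processes Nodal, stood at -0.49 ± 0.26 (edgeR adjusted p = 0.711).

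Genes of the ectoplacental cone and giant cells were mostly higher in homozygous pools 1 and 3 and not in pool 4. Of 19 tested, 16 were positive and 3 negative (median 0.63), and 5 were higher at p under 0.05 (all genes: 47.7% positive and 5.35% higher). Of the 30 listed, 5 had no count in any of the 7 pools. Summed over the list they reached 1604, 3563, 2539 and 2387 CPM in wt and 4743, 4472 and 1840.5 CPM in homozygous pools. Heterozygous pools 1, 2, 3 and 5 held 3731, 2808, 4566 and 2867 CPM. Ascl2, an imprinted regulator of the cone, was at 24.2, 101, 39.8 and 52.3 CPM in wt and 284, 160.1 and 28.4 CPM in homozygous pools. Plac1 was at 2.26, 7.06, 6.15 and 5.90 CPM and 177, 24.3 and 1.14 CPM, with a heterozygous range of 1.16 to 86.7 CPM. Rhox9 and Rhox6, X-linked homeobox genes with close copies in their cluster, stood at 1.30 ± 0.40 and 1.48 ± 0.51, with 18.4, 27.3 and 11.1 CPM of Rhox9 in homozygous against 4.75 to 10.7 CPM in wt pools. Cdkn1c, an imprinted cell cycle inhibitor on the same list, was at 332, 146 and 129.7 CPM against 97.4 to 147 CPM. Phlda2, given above, was likewise high in pools 1 and 3 but slightly higher in pool 3. Without pool 3 the list's median was 0.30, with 4 higher at p under 0.05 (all genes: 3.7%). With the correction as well 16 were positive (median 0.41), with 7 higher at that p (all genes: 2.17%). How far the amount of ectoplacental tissue per pool bears on these genes was not tested.

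**Figure D4:**
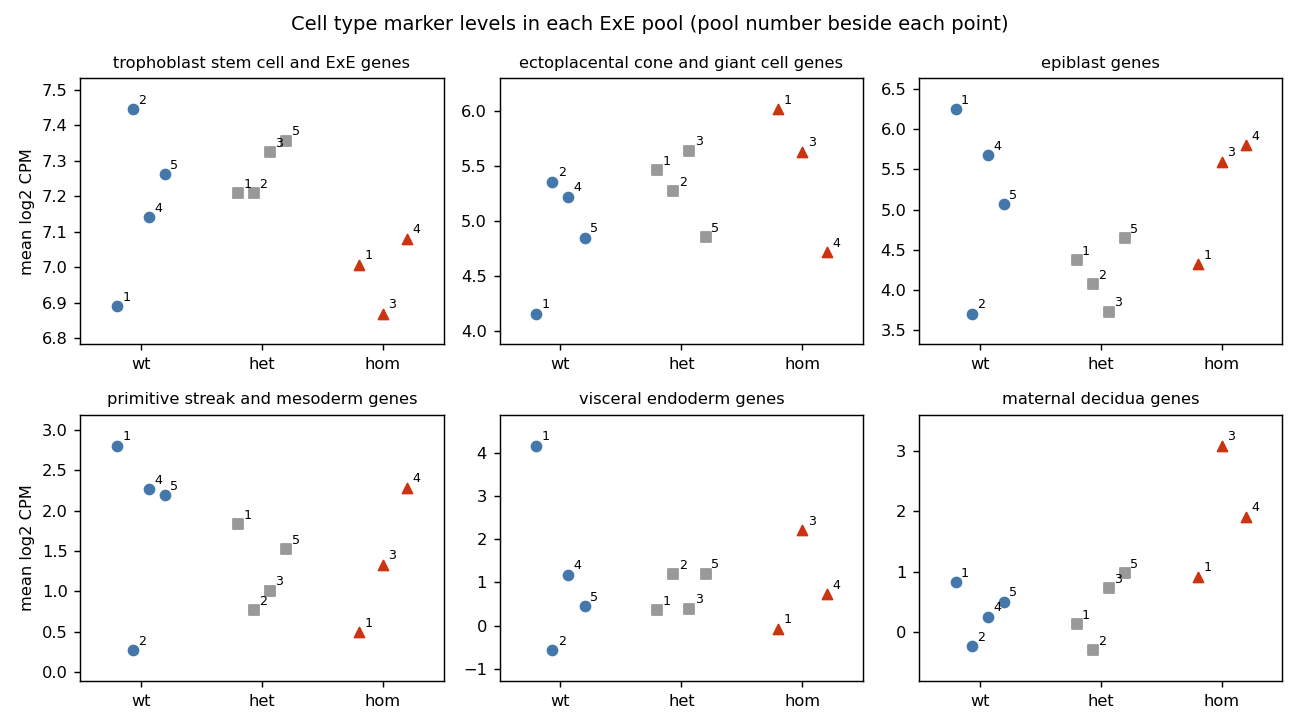
Mean log2 CPM of 6 marker lists in each extra-embryonic pool of wt (circles), heterozygous (squares) and homozygous (triangles) embryos, with the pool number beside each point. Wt pool 1 is highest for visceral endoderm genes (4.16), homozygous pool 3 for decidua genes (3.09) and homozygous pool 1 for ectoplacental cone genes (6.02).

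Markers of neighbouring tissues differed widely between pools of the same genotype, and their summed levels overlapped between homozygous and wt pools except for the decidua list. Visceral endoderm genes had a median of -0.83 over 17 tested genes, with 568, 33.9, 89.1 and 62.1 CPM summed in wt and 49.4, 159 and 74.97 CPM in homozygous pools. Without wt pool 1 the median was 1.32. Without homozygous pool 3 it was -2.40, with 20 of 20 tested genes negative and 5 lower at p under 0.05 (all genes: 4.55%). The sign of this list's median thus changed with wt pool 1. Dab2, an endocytic adaptor of that tissue, was at 140.0, 1.46, 9.39 and 8.44 CPM in wt and 9.12, 9.25 and 8.46 CPM in homozygous pools. Epiblast genes (17 tested, median -0.08) summed to 2741, 1617, 2446 and 1718 CPM in wt and 1118, 3191 and 1936 CPM in homozygous pools. Their median was -0.45 without homozygous pool 3, with 12 negative and 2 lower at p under 0.05 (all genes: 4.55%). Primitive streak genes (11 tested, median -0.47) and parietal endoderm genes (10 tested, median -0.12) had 0 members at p under 0.05 in either direction. In the blood and endothelial list 6 of 23 genes were tested, with a median of 0.40, and of -0.10 without homozygous pool 3, and the 4 Y-linked genes had a median of 0.28.

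Decidua genes were the list with the highest median, 2.46 over 11 tested genes, 9 of them positive and 5 higher at p under 0.05 (5.35% of all genes). Summed over the 20 listed genes, of which 2 had no count in any wt or homozygous pool, they reached 73.1, 62.6, 55.9 and 65.9 CPM in wt and 76.9, 316 and 83.2 CPM in homozygous pools. Heterozygous pools 1, 2, 3 and 5 held 69.6, 77.3, 67.2 and 63.3 CPM. The median was 1.45 over 12 genes without homozygous pool 3, and 0 were at p under 0.05. Prl8a2, one of the prolactin family, whose members are close relatives, was at 2.14, 0, 1.16 and 10.99 CPM in wt and 13.3, 165 and 17.5 CPM in homozygous pools. The muscle-type filament gene Des was at 3.80, 1.68, 4.64 and 1.74 CPM and 1.36, 35.5 and 12.7 CPM, above the wt range in pools 3 and 4. Alpl, 1 of the 2 negative members, made up most of the summed level in every wt pool. It was at 55.4, 56.7, 43.7 and 46.2 CPM in wt and 52.5, 44.5 and 32.4 CPM in homozygous pools (-0.23 ± 0.26). Interferon-response genes had a median of 0.55 with and -0.16 without that pool. Xaf1 was at 10.5, 129 and 20.4 CPM in homozygous and 4.93 to 12.1 CPM in wt pools, while B2m, the light chain of MHC class I, was above the wt range in each homozygous pool at 26.4, 28.4 and 33.8 against 10.9 to 19.02 CPM. The part of maternal tissue in these values was not tested.

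Signalling between epiblast and trophoblast gave no gene past the threshold. In the Nodal and TGF-beta list 10 of 27 tested genes were positive and 17 negative (median -0.18). At p under 0.05, 0 were higher and 4 lower (all genes: 5.35% and 2.22%). Without homozygous pool 3 the median was -0.26, with 0 higher and 6 lower (all genes: 3.7% and 4.55%). With the correction as well it was -0.21, with 0 higher and 3 lower (all genes: 2.17% and 2.9%). Smad4, the common mediator of the pathway, was at 213, 188, 146 and 186 CPM in wt and 127, 76.2 and 148 CPM in homozygous pools (-0.65 ± 0.23, edgeR adjusted p = 0.513), with pool 4 just inside the wt range. Acvr1b, a type I receptor, was at 4.16 to 6.05 CPM in wt and 1.29 to 2.02 CPM in homozygous pools, and the inhibitor Lefty1 at 11.2, 1.68, 5.45 and 4.29 CPM and 0.136, 1.72 and 0.505 CPM, low counts in either case. In the FGF and ERK list 9 of 32 were positive and 23 negative (median -0.15). At p under 0.05, 0 were higher and 2 lower (all genes: 5.35% and 2.22%). Without homozygous pool 3, 13 were positive and 19 negative (median -0.22), with 0 higher and 2 lower (all genes: 3.7% and 4.55%). With the correction as well the median was -0.06, with 0 higher and 1 lower (all genes: 2.17% and 2.9%). Dusp5, a phosphatase of nuclear ERK, was at 8.92, 15.3, 12.6 and 16.6 CPM in wt and 5.17, 5.81 and 7.07 CPM in homozygous pools (-1.15 ± 0.35, edgeR adjusted p = 0.513), without overlap, and the adaptor Grb2 stood at -0.41 ± 0.18.

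The BMP list had a median of 0.00, with 11 of 22 genes on each side and 0 at p under 0.05. Bmp4, the trophoblast signal to the epiblast, was at 109, 149, 159 and 155 CPM in wt and 83.1, 78.1 and 151 CPM in homozygous pools; pools 1 and 3 were below every wt pool and pool 4 was not. The WNT list had a median of -0.23 over 34 genes, with 12 positive and 0 at p under 0.05. Without homozygous pool 3, 1 was higher and 2 lower at that p (all genes: 3.7% and 4.55%). The WNT receptor Fzd7 stood at -0.76 ± 0.39 and the destruction complex scaffold Axin1 at -0.35 ± 0.19.

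Polycomb genes, whose products TET1 can meet on chromatin, had fold changes of small size, mostly negative with homozygous pool 3 and evenly split without it. Of 29 tested, 6 were positive and 23 negative with a median of -0.10, and 0 were higher and 3 lower at p under 0.05 (all genes: 5.35% and 2.22%). When homozygous pool 3 was left out, 14 were positive and 15 negative, with a median of -0.04, 3 higher and 2 lower (all genes: 3.7% and 4.55%). Cbx6, a PRC1 chromodomain subunit, was at 85.7, 103, 95.2 and 88.3 CPM in wt and 52.4, 75.9 and 64.9 CPM in homozygous pools, without overlap (-0.53 ± 0.19, edgeR adjusted p = 0.513), and was among the 29 DESeq2 calls without homozygous pool 3 (adjusted p = 0.0242). Jarid2 and Aebp2, accessory subunits of PRC2, stood at -0.58 ± 0.25 and -0.62 ± 0.25, and for both the lowest level was in homozygous pool 3. In that pool Jarid2 was at 199 CPM, against 403 to 656 CPM in wt and 428 and 434 CPM in homozygous pools 1 and 4.

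Imprinted and germline genes, which depend on DNA methylation, had fold changes in both directions. Of 47 imprinted genes tested, 22 were positive and 25 negative (median -0.05), with 4 higher and 3 lower at p under 0.05 (all genes: 5.35% and 2.22%). Among the higher genes were Phlda2, Ascl2 and Cdkn1c, described above, and the lower genes were Copg2, a coat protein gene (-0.79 ± 0.26), Inpp5f, a phosphoinositide phosphatase gene (-0.82 ± 0.28), and Grb10, a growth-restraining adaptor (-0.71 ± 0.28). Inpp5f was at 34.2, 28.4, 31.2 and 26.3 CPM in wt and 15.5, 17.9 and 17.7 CPM in homozygous pools, and Copg2 at 105, 115, 70.98 and 82.4 CPM and 64.4, 34.2 and 63.2 CPM, both without overlap. Germline and meiosis genes, many of which are silenced by promoter methylation, had 30 of 56 members tested, 15 on each side, with a median of -0.01 (-0.16 without homozygous pool 3). At p under 0.05, 0 were higher and 1 lower (all genes: 5.35% and 2.22%). The lower gene was Asz1, of the piRNA pathway, at 3.21, 4.03, 4.41 and 4.42 CPM in wt and 2.04, 0.430 and 1.51 CPM in homozygous pools.

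The remaining lists had medians of -0.12 to 0.02. Cholesterol synthesis genes had a median of -0.12 over 25 genes, with 0 higher and 2 lower at p under 0.05 (all genes: 5.35% and 2.22%). The 2 lower genes were Lss (-0.49 ± 0.20) and Insig1 (-0.75 ± 0.35). Without homozygous pool 3, 1 was higher and 3 lower (all genes: 3.7% and 4.55%). Cell cycle genes had a median of -0.12 over 30 and p53 targets 0.02 over 24, the latter -0.15 without homozygous pool 3. Bax, a p53 target that promotes apoptosis, was at 171, 495 and 172 CPM in homozygous and 160.4 to 199 CPM in wt pools, so its value came from pool 3. Of 78 tested genes within 10 Mb of Tet1, which share its stretch of chromosome 10, 35 were positive and 43 negative (median -0.07). At p under 0.05, 2 were higher and 0 lower (all genes: 5.35% and 2.22%). When homozygous pool 3 was left out, 47 were positive and 31 negative (median 0.06), with 5 higher and 2 lower (all genes: 3.7% and 4.55%). With the correction as well, 32 were positive and 46 negative (median -0.06). The 2 higher genes in the fit of all pools were Cisd1, a mitochondrial iron-sulphur protein gene, at 68.6, 87.1, 93.9 and 95.4 CPM in wt and 111, 213 and 114 CPM in homozygous pools, and Pbld1, at 28.4 CPM in homozygous pool 3.

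**Figure D5:**
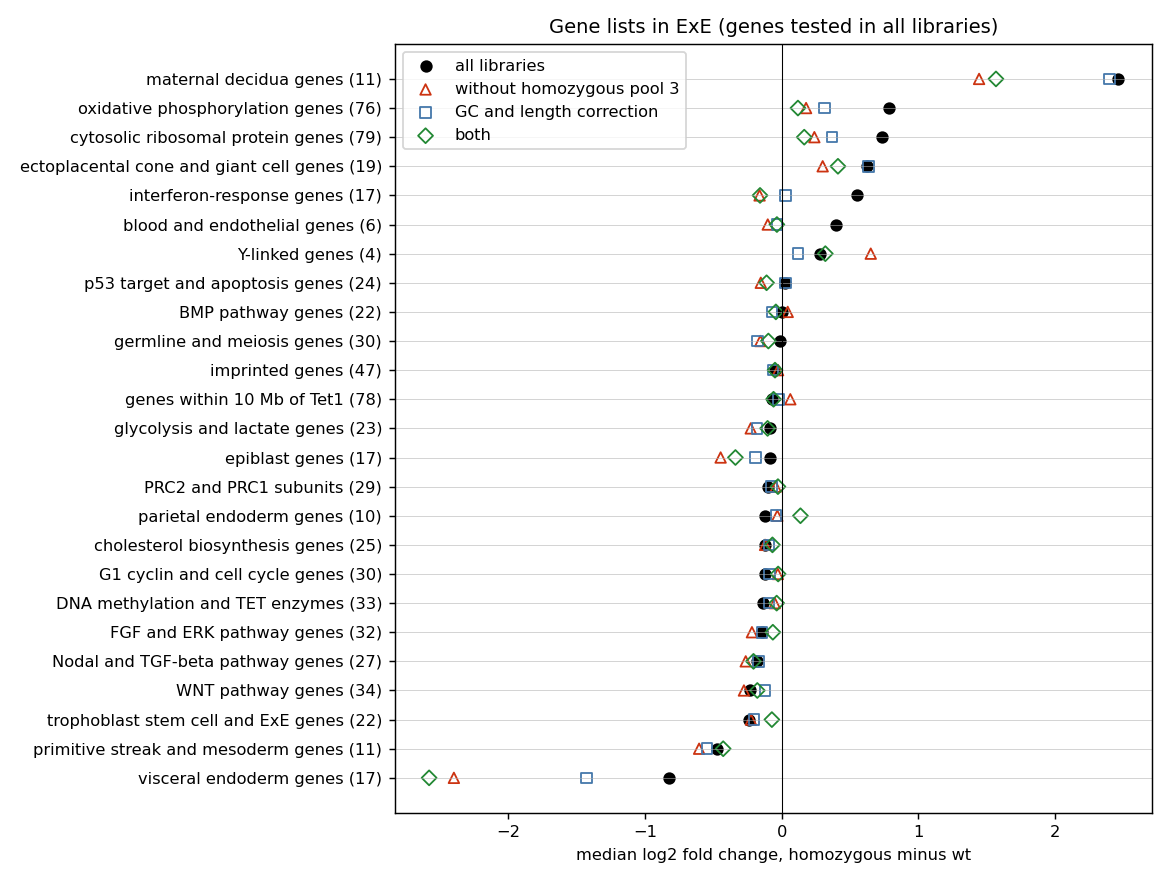
Median log2 fold change (homozygous minus wt) of each gene list, with the number of genes tested, in the fit of all extra-embryonic libraries (filled circles), without homozygous pool 3 (triangles), with the GC and length correction (squares) and with both (diamonds). Ribosomal protein and oxidative phosphorylation genes go from 0.73 and 0.79 to 0.17 and 0.12 when both are applied.

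The homozygous effect in extra-embryonic tissue was also set against that in the epiblast, with an interaction term in a fit of all 23 libraries. No gene of 13595 passed the threshold (0%), 416 had an unadjusted p under 0.05 (3.06%), and DESeq2 called 3 of 18025 (0.0166%). Per the labels, epiblast and extra-embryonic pools of 1 genotype come from the same litters and share a number in 3 of 4 replicates. By the sample titles, the numbers of wt pools 1, 2, 4 and 5 and of homozygous pools 1, 3 and 4 occur in both tissues. With the pool number as a replicate block, 576 genes had an unadjusted p under 0.05 (4.24%), again with 0 past the threshold. In fits with no block, the count at that p was 756 without homozygous extra-embryonic pool 3 and 628 without pool 4. It was 819 (5.87%) without the 3 libraries of both tissues with a length and GC bias. The smallest p belonged to Itga3, an integrin subunit of laminin receptors. It was at 83.7 ± 2.03 CPM in wt (SD, n = 4) and 61.0 ± 17.7 CPM in homozygous extra-embryonic pools (SD, n = 3), and at 55.1 ± 4.58 and 98.9 ± 11.2 CPM in wt and homozygous epiblast (SD, n = 4 each). The difference of the log2 fold changes was -1.30 ± 0.27 (edgeR adjusted p = 0.63, DESeq2 adjusted p = 0.0185). Pcnx, among the 12 lower genes above, had a difference of -1.38 ± 0.35, Tsku, a secreted signalling modulator, of -2.22 ± 0.60, 1700047I17Rik2 of 1.13 ± 0.30 and Mixl1, a homeobox gene of the primitive streak, of 3.54 ± 1.05, each with an edgeR adjusted p of 0.9999. For Mixl1 the difference came from the epiblast, where wt pools ranged from 4.88 to 126 CPM, against 2.55 to 7.84 CPM in wt extra-embryonic pools.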

How the data were processed

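RNA was measured in pooled lysates with SMARTer amplification and 75-bp single-end reads, per the labels. Trimming (cutadapt 1.7.1) and filtering preceded TopHat2 2.0.12 and the build mm10 (GRCm38), per the submitters' processing notes. The counting program, annotation and strand setting (not given in the sources used here) leave a limit: antisense or overlapping genes cannot be told apart. The authors deposited raw counts per gene (23725 lines, 27 with symbols turned into dates), and 98.5% of the lines matched GENCODE M21. From these, edgeR 4.0.16 (R 4.3.3) kept 12355 genes by filterByExpr (minimum count 10, total 15), scaled by TMM and fitted the 11 extra-embryonic libraries. Fold changes used a prior count of 0.125 and log2 CPM levels one of 2. The correction regressed each library on splines (4 degrees of freedom) of GC and log2 length, known for 99.3% of tested genes. A count of 0 allows 3 counts, 0.316 to 0.611 CPM by library, for counting error only. Libraries of a group differed beyond counting noise (chi-square per degree of freedom 17.1 to 118), so none was merged. DESeq2 1.42.0, limma-voom (limma 3.58.1), other filters and scalings, and leaving out pools were alternatives.

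The comparison, the 24 gene lists and the rule for named genes were chosen with earlier results of these data known. Genes named are the TET and DNMT genes with Uhrf1 and Jmjd8, the 12 per direction and DESeq2 calls described, up to 4 of smallest p per list (mean log2 CPM 1 or more), genes within 10 Mb of Tet1, and the 5 of smallest p between tissues. Scripts were tested on simulated data.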

Additional observations from a re-analysis of the deposited data

Results flagged for a closer look

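In 10 of 124 groups of 4 wt pools examined, 1 pool lay far from the other 3, with a gap to its neighbour above Dixon's critical share of the range; chance gives this to about 1 in 20 groups. Wt pool 1 was the pool in 6 of them. There Dab2 was at 140.0 CPM (1.46 to 9.39 CPM in the other wt pools), Pbld1 at 6.54 CPM (1.62 to 1.88), Pcsk6 at 92.8 CPM (168 to 175), Vamp4 at 11.5 CPM (15.5 to 16.4) and Cryab, a small heat shock protein gene of the decidua list, at 0.119 CPM (1.47 to 1.74). Its 4 Y-linked genes averaged -0.16 on the log2 CPM scale (3.20 to 3.71). In wt pool 2 Zfp935 was at 22.7 CPM (36.6 to 39.0), Bbc3, a p53 target, at 10.98 CPM (5.11 to 6.03) and the interferon-response genes at a mean log2 CPM of 1.13 (2.18 to 2.39). In wt pool 5 Lsm5 was at 40.9 CPM (23.8 to 26.4).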

How the results depend on the processing

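The number of genes past the threshold, 0 in edgeR, was 1 with no filter, 1 with all 23 libraries in 1 fit and 1 with the GC and length correction, Tet1 each time. It was 11 by DESeq2, 29 by DESeq2 without homozygous replicate 3 (chosen after the data were seen, as was the joint removal and correction), and 0 to 2 when 1 pool was left out. Genes higher at p under 0.05 numbered 661, 412 with only the 7 wt and homozygous libraries, 277 with removal and correction, and 442 to 1009 with 1 pool left out. Genes lower numbered 274, 151 with the 7 libraries, 724 by DESeq2 without homozygous replicate 3, and 209 to 606 with 1 pool left out. The share of higher genes was 70.7%, 74.6% with RLE scaling, 59.8% corrected and 44.9% without homozygous replicate 3. For the difference between tissues DESeq2 called 3 genes and edgeR 0 in every fit, leaving out any pool included. The Tet1 difference on the log2 CPM scale was -2.08 to -1.68 with 1 pool left out, where the design cannot reach 0.05.

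Whether pool numbers pair genotypes was not stated. Same-numbered pools correlated at -0.146 to 0.0098 in their deviations from group means, and other pairs of pools at -0.229 to 0.299. These values cannot decide whether same-numbered pools share litters, since pools also differed in GC slope and in tissue markers. With the replicate block 0 genes passed, 105 were higher and 113 lower at p under 0.05, and with the block and the correction 157 and 150.

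Of the 96 genes named, 10 changed sign in some fit, none past the threshold in either, and the cause was not tested. Tet2 was 0.20 with the block, 0.21 with block and correction, 0.098 by DESeq2 without homozygous replicate 3, 0.049 by limma-voom and -0.34 to 0.13 with 1 pool left out. Dnmt1 was 0.12 with removal and correction and 0.073 with block and correction. Dnmt3a was -0.61 to 0.20 with 1 pool left out. Dnmt3l was -0.011 with the block, -0.080 with block and correction, -0.035 by DESeq2 without homozygous replicate 3 and -0.050 to 0.38 with 1 pool left out. Uhrf1 was 0.051 with removal and correction. Jmjd8 was 0.027 with RLE scaling, 0.014 with all 23 libraries, 0.019 by DESeq2 and -0.25 to 0.16 with 1 pool left out. With 1 pool left out Dab2 was -2.56 to 0.48, Bax -0.063 to 0.91 (-0.050 by DESeq2 without homozygous replicate 3), Mixl1 -0.38 to 0.45 and Nr1h2 -0.93 to 0.016. Of 456 list medians refitted, 24 moved beyond the spread between replicates, in 8 lists. A planned check on promoter CpG content was not run because 79.4% of tested genes, under 80%, had a promoter in the table. Depth limits genes below 0.611 CPM.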

Other observations

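Without homozygous pool 3, DESeq2 called 29 genes; the genes named here were chosen after their values were seen. The 9 higher genes had a median GC content of 40.4% and the 20 lower genes one of 57.3%. After both the removal and the correction, edgeR gave an unadjusted p under 0.05 in the same direction to 6 of the 9 and to 19 of the 20. In that fit 2.17% of all genes were higher and 2.9% lower at that p. The 29 genes were called in the same libraries, so these counts are a description and not a test. In the pool that had been left out, 3 of the 9 higher genes were above the wt range, and 6 were below it. Of the 20 lower genes, pool 3 was below the wt range for 7, inside it for 6 and above it for 7.

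Nr1h2, the gene of a liver X receptor, had 101, 96.2, 116 and 86.98 CPM in wt, against 51.2, 148 and 55.7 CPM in homozygous pools 1, 3 and 4, so pools 1 and 4 were below every wt pool and pool 3 above them (DESeq2 without pool 3, -0.91 ± 0.18, adjusted p = 0.000664). Rap1a, a small GTPase gene, was at 62.8, 57.3, 48.2 and 81.2 CPM in wt and 131, 25.2 and 103 CPM in homozygous pools, with pool 3 again on the other side (0.90 ± 0.23, DESeq2 adjusted p = 0.0242). Mta1, a subunit gene of the NuRD remodelling complex, was at 68.2, 62.7, 56.1 and 42.9 CPM in wt and 31.98, 42.4 and 30.7 CPM in homozygous pools, all below the wt range (-0.88 ± 0.24, DESeq2 adjusted p = 0.0471).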
